A study of Mus musculus with 20 samples.

Results

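Cpne2, Sh3d19, Galnt7, Nxn and Atp13a3 are 5 mouse genes of unrelated protein families whose RNA was read in denervated skeletal muscle. They were chosen by earlier results on the same arrays, for higher signal in muscle of SOD1G93A mice and, for most of them, for higher signal after nerve crush. The values that selected them are therefore those of the comparisons with non-transgenic muscle, and these are given below as a description. Counts of calls, intervals and folds in them support nothing about these genes. Every probe set annotated to 1 of these symbols alone was taken, which gave 11 of the 10748 probe sets on the table: 1 for Cpne2, 2 each for Nxn and Atp13a3, and 3 each for Sh3d19 and Galnt7. Of the 11, 7 passed the filter on dim probe sets. In the text a gene is read by its probe set with the highest mean over all arrays, called its lead probe set.

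The study took gastrocnemius, a calf muscle, and triceps, a forelimb muscle, from female C57BL/6 mice aged 14 weeks, and measured 20 arrays in 5 groups of 4. SOD1 muscles came from symptomatic mice transgenic for human SOD1 with the G93A mutation, a model of amyotrophic lateral sclerosis in which motor nerve endings withdraw from muscle, and NTg muscles from non-transgenic mice. In the crush group, the sciatic nerve, which serves gastrocnemius, had been crushed for 30 s at 12 weeks of age, and the muscle was taken 2 weeks later as a control for denervation. The sources used here do not give the genotype of the crushed mice or the promoter of the transgene, and no sham-operated muscle was analysed. Both muscles of a genotype are described as coming from 4 mice, but no label ties an array to a mouse. The p-values therefore measure the spread between these samples.

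A muscle fibre that loses its nerve is known to switch on embryonic and extrajunctional genes, among them acetylcholine receptor subunits and the myogenic factor Myog, and to lose mass. The 5 genes act elsewhere in the cell. Cpne2 encodes a copine, a calcium-dependent protein that binds phospholipid membranes, and Sh3d19 an adaptor with SH3 domains that binds ADAM proteases. Galnt7 encodes a Golgi enzyme that adds N-acetylgalactosamine to partly glycosylated proteins in mucin-type O-glycosylation. Nxn encodes nucleoredoxin, a thioredoxin-like protein that binds Dishevelled, a carrier of Wnt signals, and Atp13a3 a P5-type transport ATPase linked to polyamine uptake.

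The 5 genes lie on 4 chromosomes of the mouse RefSeq annotation (build GRCm38.p6), all protein-coding: Cpne2 at chr8:94532674-94570529, Galnt7 at chr8:57523825-57653055, Nxn at chr11:76257226-76399141, Sh3d19 at chr3:85970805-86130526 and Atp13a3 at chr16:30312423-30388871. The promoters of 4 of them were in the RefSeq promoter table (GRCm38.p6). The 250 bases before a transcript start are printed here so that the letters of genes chosen for a like rise can be seen side by side. Each runs 5′ to 3′ on the strand of the gene: Cpne2 at chr8:94532778-94533027 (plus strand), Galnt7 at chr8:57653056-57653305 (minus), Nxn at chr11:76399142-76399391 (minus) and Sh3d19 at chr3:85970868-85971117 (plus). The starts used for Cpne2 and Sh3d19 lie within the annotated span of the gene. Capitals mark every GC box (GGGCGG on either strand, read as CCGCCC on the other) and, in Nxn, the E-box CAGCTG.
Cpne2: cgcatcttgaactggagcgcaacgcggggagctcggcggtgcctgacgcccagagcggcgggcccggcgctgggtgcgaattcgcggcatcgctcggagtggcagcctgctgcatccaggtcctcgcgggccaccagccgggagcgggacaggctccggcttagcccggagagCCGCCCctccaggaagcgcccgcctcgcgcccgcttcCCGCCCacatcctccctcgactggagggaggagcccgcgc
Galnt7: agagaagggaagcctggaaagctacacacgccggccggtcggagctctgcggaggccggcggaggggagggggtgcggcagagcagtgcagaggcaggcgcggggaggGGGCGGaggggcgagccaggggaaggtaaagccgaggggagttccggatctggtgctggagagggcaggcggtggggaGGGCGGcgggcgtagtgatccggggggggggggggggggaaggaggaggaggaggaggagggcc
Nxn: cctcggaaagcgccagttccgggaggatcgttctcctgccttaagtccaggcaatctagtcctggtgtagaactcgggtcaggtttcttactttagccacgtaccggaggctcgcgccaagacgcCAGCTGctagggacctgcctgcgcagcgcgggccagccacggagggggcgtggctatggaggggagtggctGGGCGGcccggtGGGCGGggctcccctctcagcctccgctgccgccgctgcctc
Sh3d19: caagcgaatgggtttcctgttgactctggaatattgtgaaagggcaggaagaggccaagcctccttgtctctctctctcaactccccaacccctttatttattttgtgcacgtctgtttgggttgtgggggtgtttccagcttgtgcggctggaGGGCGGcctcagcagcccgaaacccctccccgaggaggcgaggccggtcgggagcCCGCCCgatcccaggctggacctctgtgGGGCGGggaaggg

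All 4 promoters held at least 2 GC boxes; of the 32851 promoters of the same length in the table, 16.7% held at least 2 and 32.7% at least 1. Cpne2 held 2, with first bases 77 and 40 before the start, Galnt7 2 (142 and 64), Nxn 2 (54 and 42) and Sh3d19 3 (96, 41 and 13). The share of G and C was 74.4% in Cpne2, 73.6% in Galnt7, 67.6% in Nxn and 60.8% in Sh3d19, against a median of 52.4% over the table, and a GC box is more likely in any sequence of this kind. Nxn alone had an E-box (CANNTG, in 66.2% of the table), the motif of myogenic factors, 125 bases before its start and of the form CAGCTG (13% of the table). Cpne2 alone had a CREB core (TGACG, 17.8%), 207 bases before its start. A TATA box (TATAAA, 12.4%), an AP-1 site (TGANTCA, 6.75%) and a Runx site (TGTGGT, 14%) were found in 0 of the 4 windows. Both strands were searched for each motif, and every CAGCTG is also counted as a CANNTG. These are matches of letters, with no measurement of binding.

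The deposited values are log2 MAS5 signals, and array medians lay between 6.61 and 6.76. Pearson's r across probe sets was between 0.902 and 0.981 for arrays of the same group, and no array repeated another. Crush replicate 4 stood apart: its r with the other crush arrays was 0.902 to 0.909, while theirs with each other reached 0.976. Its mean r was 0.944 with SOD1 gastrocnemius and 0.891 with NTg gastrocnemius. Replicate 4 of NTg triceps is described as gastrocnemius in 1 of its labels, and its r was 0.935 to 0.955 with the other NTg triceps arrays and 0.898 to 0.928 with NTg gastrocnemius. The 10 skeletal muscle fibre markers looked at were all on the table, at or above the 98.9th percentile of mean signal. The probe set of mouse Sod1, which does not check the human transgene, had medians of 10.7 in NTg gastrocnemius, 11.1 in SOD1 gastrocnemius, 10.6 after crush, 10.7 in NTg triceps and 10.8 in SOD1 triceps.

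For the 5 genes this array was high throughout. Crush replicate 4 had the highest signal of its group in 11 of the 11 probe sets, against 35% of all probe sets on the table, and the highest of all 20 arrays in 6 of 11, against 12%. For the lead probe sets it lay 2.69 (median over the 5 genes, range 0.73 to 3.73) log2 units above the mean of the other 3 crush arrays. Replicate 4 was also the highest SOD1 triceps array in 11 of 11 (30.1% of all probe sets), by a median of 1.59, and the highest SOD1 gastrocnemius array in 10 of 11 (29.6%). Replicate numbers only name arrays, and the source of these shared high values was not tested. Crush folds, group orders and correlations of these genes are given with and without crush replicate 4.

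Cpne2 was read by 1424831_at. Its log2 signal was 5.16, 4.08, 1.39 and 4.20 in the 4 NTg gastrocnemius arrays and 7.71, 8.87, 8.79 and 9.27 in SOD1 gastrocnemius, so that the groups did not overlap. In triceps the NTg values were 3.55, 3.21, 1.36 and 4.16 and the SOD1 values 7.19, 7.43, 7.56 and 9.23, again with no overlap. After crush they were 5.79, 5.73, 5.12 and 9.27: 3 arrays lay close to the highest NTg array, the lowest of them just under it, and 1 at the level of the highest SOD1 array. The group means were 8.66 ± 0.67 (SD, n = 4) in SOD1 gastrocnemius, 7.85 ± 0.93 in SOD1 triceps, 6.48 ± 1.89 after crush, 3.71 ± 1.62 in NTg gastrocnemius and 3.07 ± 1.21 in NTg triceps.

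As ratios of geometric means, Cpne2 was 31-fold higher in SOD1 than in NTg gastrocnemius, 27.5-fold higher in SOD1 than in NTg triceps and 6.82-fold higher after crush. The folds rest on dim and scattered NTg signals. Without NTg gastrocnemius replicate 3, the lowest, the gastrocnemius difference was 4.18 on the log2 scale instead of 4.95. The crush fold was 3.58 without crush replicate 4. The probe set lay just above the filter, with a mean over all arrays of 5.95 against a limit of 5.88, and passed because of the groups in which it was high.

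**Figure D1:**
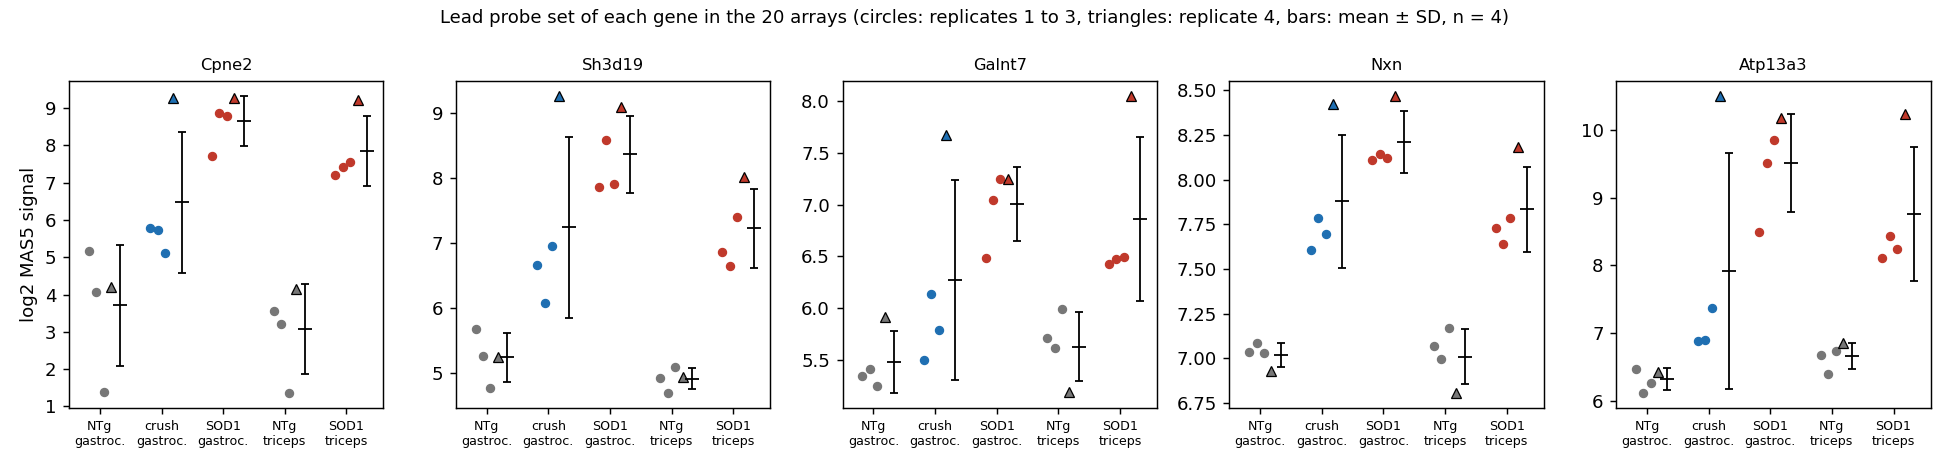
Log2 MAS5 signal (vertical axis) of the lead probe set of each gene in the 20 arrays, by group, with circles for replicates 1 to 3, triangles for replicate 4 and bars for mean ± SD (n = 4). Crush replicate 4 lies above the other 3 crush arrays in every panel, for Cpne2 at 9.27 against at most 5.79.

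Sh3d19, the SH3 adaptor, was read by 1449084_s_at, a probe set whose design can also match related transcripts. NTg gastrocnemius gave 5.69, 5.27, 4.77 and 5.25, and SOD1 gastrocnemius 7.86, 8.58, 7.91 and 9.10. Crushed gastrocnemius gave 6.66, 6.08, 6.96 and 9.26, all above NTg. In triceps, NTg muscle gave 4.93, 4.70, 5.10 and 4.95 and SOD1 muscle 6.87, 6.65, 7.40 and 8.01. Neither SOD1 group overlapped the NTg arrays of its muscle, and the NTg triceps arrays lay closest together.

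Means of Sh3d19 were 8.36 ± 0.59 (SD, n = 4) in SOD1 gastrocnemius, 7.24 ± 1.39 after crush, 7.23 ± 0.61 in SOD1 triceps, 5.25 ± 0.37 in NTg gastrocnemius and 4.92 ± 0.17 in NTg triceps. The mean after crush and the mean in SOD1 triceps differed by less than either SD. The folds were 8.66 in SOD1 gastrocnemius, 4.96 in SOD1 triceps and 3.98 after crush, or 2.5 after crush without replicate 4. Its dimmer probe set 1418461_at, which missed the filter, had means of 4.20, 6.20 and 5.54 in NTg, SOD1 and crushed gastrocnemius (crush fold 2.54, or 1.98 without replicate 4), and neither SOD1 nor crushed muscle overlapped NTg muscle on it. The third, 1418460_at, lay near the bottom of the scale, where NTg triceps arrays ran from -0.84 to 3.97, and no fold is given for it.

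Galnt7, the glycosyltransferase, had a smaller difference in its lead probe set, 1426908_at. Its signal was 5.35, 5.41, 5.24 and 5.92 in NTg and 6.48, 7.05, 7.25 and 7.25 in SOD1 gastrocnemius. After crush it was 5.50, 6.14, 5.79 and 7.67, and the lowest 2 of these overlapped NTg muscle. In triceps it was 5.71, 5.62, 6.00 and 5.19 in NTg and 6.42, 6.47, 6.50 and 8.05 in SOD1 mice. Here 3 SOD1 triceps arrays lay within 0.1 of each other and replicate 4 stood 1.55 above the next.

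Galnt7 means were 7.01 ± 0.36 (SD, n = 4) in SOD1 gastrocnemius, 6.86 ± 0.79 in SOD1 triceps, 6.27 ± 0.97 after crush, 5.63 ± 0.34 in NTg triceps and 5.48 ± 0.30 in NTg gastrocnemius. The folds over NTg muscle were 2.88, 2.35 and 1.73 in SOD1 gastrocnemius, SOD1 triceps and crushed muscle. The probe sets of this gene disagreed in size. On 1452232_at the NTg gastrocnemius values of 4.26, 3.24, 4.78 and 4.39 and the crush values of 5.51, 5.62, 5.69 and 7.96 did not overlap, and the same 3 folds were 7.55, 5.07 and 4.08. Without crush replicate 4 the crush folds were 1.26 on the lead probe set and 2.71 on 1452232_at. The dim 1425581_s_at had folds of 3.23, 2.87 and 2.02, the last 1.58 without that array, with overlap between crushed and NTg muscle.

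Nxn had the smallest SD of the 5 lead probe sets in each group, and the smallest difference between SOD1 and NTg muscle. Its lead probe set 1422465_a_at gave 7.03, 7.09, 7.03 and 6.93 in NTg and 8.11, 8.14, 8.12 and 8.47 in SOD1 gastrocnemius. The crush values, 7.61, 7.79, 7.70 and 8.43, lay between them except for replicate 4, which was within the SOD1 range. NTg triceps gave 7.07, 7.0, 7.17 and 6.81 and SOD1 triceps 7.73, 7.64, 7.79 and 8.18. All 12 arrays of SOD1 or crushed muscle were above all 8 arrays of NTg muscle.

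For Nxn the means were 8.21 ± 0.17 (SD, n = 4) in SOD1 gastrocnemius, 7.88 ± 0.37 after crush, 7.83 ± 0.24 in SOD1 triceps, and 7.02 ± 0.07 and 7.01 ± 0.15 in NTg gastrocnemius and triceps. The folds were 2.28, 1.77 and 1.81 in SOD1 gastrocnemius, SOD1 triceps and crushed muscle, and 1.60 after crush without replicate 4. Its other probe set, 1422466_at, which missed the filter, had folds of 1.68, 1.38 and 1.49, the last 1.34 without crush replicate 4. It overlapped between SOD1 and NTg triceps.

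Atp13a3, the transport ATPase, was read by 1434513_at. Its signal was 6.46, 6.12, 6.26 and 6.43 in NTg and 8.50, 9.51, 9.85 and 10.18 in SOD1 gastrocnemius. After crush, 3 arrays stood at 6.88, 6.89 and 7.37 and replicate 4 at 10.50, the highest value of the gene in any array. NTg triceps gave 6.67, 6.39, 6.74 and 6.85 and SOD1 triceps 8.11, 8.43, 8.25 and 10.23. The last of these was again replicate 4, 1.80 above the next.

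Group means of Atp13a3 were 9.51 ± 0.73 (SD, n = 4) in SOD1 gastrocnemius, 8.75 ± 0.99 in SOD1 triceps, 7.91 ± 1.74 after crush, 6.66 ± 0.19 in NTg triceps and 6.32 ± 0.16 in NTg gastrocnemius. The folds were 9.14 in SOD1 gastrocnemius, 4.26 in SOD1 triceps and 3.02 after crush. Without crush replicate 4 the last was 1.66, and its 3 arrays still lay above all 4 NTg arrays. On 1442145_at the folds were 3.79, 2.51 and 1.95, and crushed muscle overlapped NTg muscle, with 6.00, 5.16, 5.86 and 8.69 after crush against 5.30, 5.41, 5.79 and 5.35. That last fold was 1.16 when crush replicate 4 was left out.

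**Figure D2:**
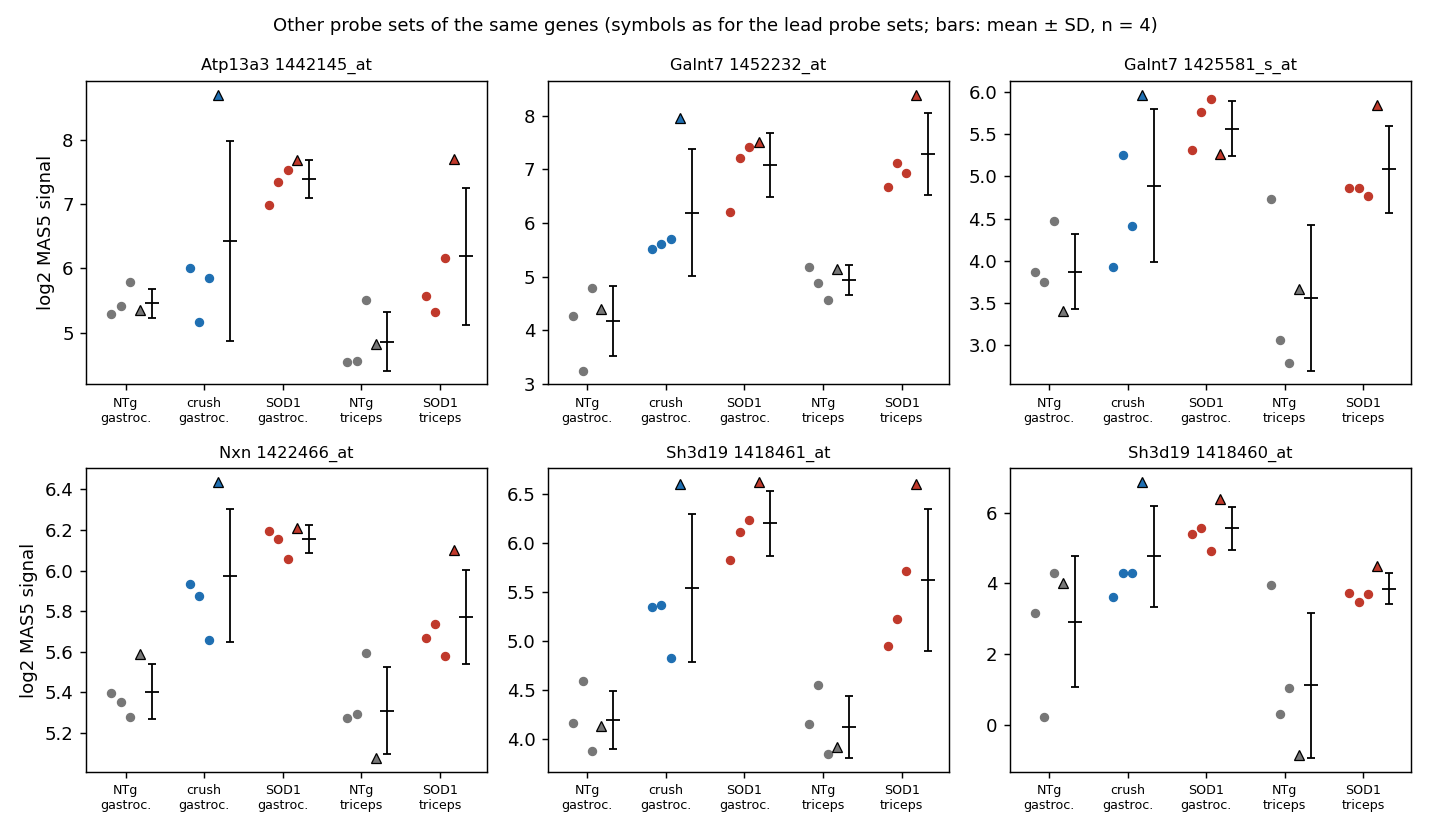
Log2 MAS5 signal (vertical axis) of the 6 other probe sets of the same genes in the 5 groups, with circles for replicates 1 to 3, triangles for replicate 4 and bars for mean ± SD (n = 4). Crush replicate 4 is the highest crush array in each, as on 1452232_at of Galnt7 (7.96 against at most 5.69).

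The order of the 5 group means was alike across genes. SOD1 gastrocnemius was highest for all 5 lead probe sets. The next 2 places were held by SOD1 triceps and crushed muscle, in that order for Cpne2, Galnt7 and Atp13a3 and in the other order for Sh3d19 (7.24 after crush against 7.23) and Nxn (7.88 against 7.83). Without crush replicate 4 the crush means of Sh3d19 and Nxn were 6.57 and 7.70, below SOD1 triceps, and the first 3 places were then in the same order for all 5 genes. Both NTg groups came last. Arrays of neighbouring groups in the upper 3 places overlapped for each lead probe set, and so did those of both NTg groups.

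**Figure D3:**
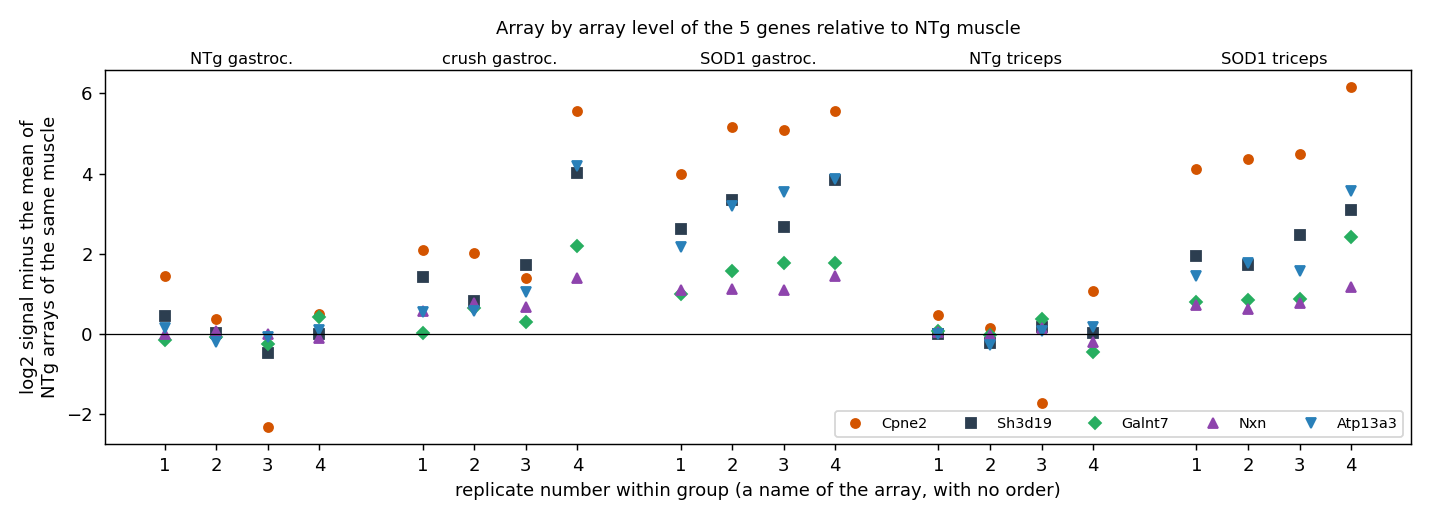
Log2 signal of each lead probe set minus the mean of the NTg arrays of the same muscle (vertical axis), for each array by its replicate number (horizontal axis, a name with no order). Crush replicate 4 reached 4.18 for Atp13a3, against at most 1.06 in the other 3 crush arrays.

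Set beside all probe sets, the members' counts are descriptions of how they were chosen. In SOD1 against NTg gastrocnemius, 7 of 7 tested member probe sets were called higher (limma, adjusted p under 0.05), where 5.97% of all 7523 tested were. In SOD1 against NTg triceps, 4 of 7 were called (those of Cpne2, Sh3d19 and Nxn, and 1452232_at of Galnt7), against 0.239%. After crush, 3 of 7 were called (Sh3d19, Nxn and 1452232_at), against 1.08%. Median log2 differences of the 7 were 2.92, 2.09 and 1.59, against medians of -0.0015, 0.013 and 0.017 over all tested probe sets. These comparisons share NTg arrays in gastrocnemius. The lead probe sets of Nxn (means of 7.02 and 7.01 in NTg gastrocnemius and triceps) and Atp13a3 (6.32 and 6.66) lay above the filter limit of 5.88 in NTg muscle too. The other member probe sets tested passed the filter through the groups in which they were high.

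The triceps count moved with single arrays. It was 0 of 7 without NTg triceps replicate 3 and also without SOD1 triceps replicate 4. Over all probe sets the count in either direction was 3 in each of these fits, against 18 with all arrays. The members' count was 1 without NTg triceps replicate 2 (8 of all) and without NTg triceps replicate 4 (25 of all). It was 2 without SOD1 triceps replicate 2 (11 of all) and without replicate 3 (21 of all). Leaving crush replicate 4 out, an array of neither triceps group, gave 6 (167 of all), since all groups share 1 residual variance. The crush count was 1 without NTg gastrocnemius replicate 2 and without replicate 4, and 2 without replicate 3. Over all probe sets the crush count in either direction was 120, 94 and 126 in these fits, against 311 with all arrays. Counted by arrays alone, with no filter, all 4 SOD1 arrays lay above all 4 NTg arrays for 11 of 11 probe sets in gastrocnemius (11.5% of all probe sets) and 8 of 11 in triceps (4.1%). All 4 crush arrays lay above all 4 NTg arrays for 6 of 11 (6.39%).

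**Figure D4:**
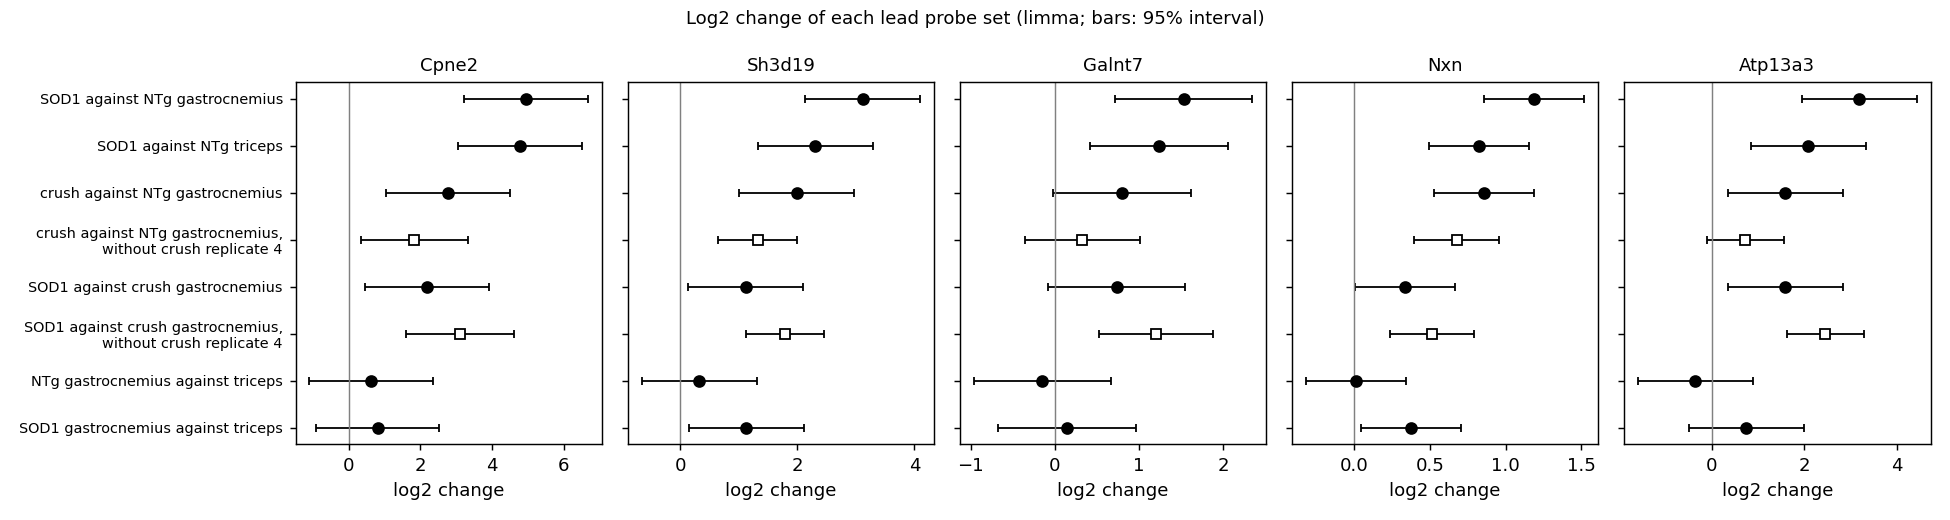
Log2 change (horizontal axis) of each lead probe set in 6 comparisons, with the 95% interval of the limma fit as bars (a description, since these genes were chosen on the differences from NTg muscle), filled circles for all arrays and open squares for the fit without crush replicate 4. For Atp13a3 the change after crush is 1.59 with all arrays and 0.73 without that array.

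Leaving out crush replicate 4, an alternative chosen after its values were seen, gave 3 of 7 member probe sets called higher after crush, where 2.27% of all tested probe sets were. They were the same 3. The log2 differences were 1.84 for Cpne2, 1.32 for Sh3d19, 0.33 for Galnt7, 0.68 for Nxn and 0.73 for Atp13a3, all smaller than with the array. The 3 crush arrays lay above the 4 NTg arrays for 6 of 11 probe sets, against 12.2% of all.

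SOD1 and crushed gastrocnemius were then set against each other. Since the genes were chosen for high signal in these same SOD1 arrays, their differences are a description and no p is given. With all arrays, every lead probe set had a higher mean in SOD1 muscle. Limma called 0 of 7 member probe sets and 0 of 7523 (0%), while 4 and 940 had an unadjusted p under 0.05. The log2 difference was 2.18 for Cpne2 (SE 0.83, 95% interval 0.46 to 3.91), 1.12 for Sh3d19 (SE 0.47, 0.14 to 2.10) and 1.60 for Atp13a3 (SE 0.59, 0.36 to 2.84). It was 0.73 for Galnt7 (SE 0.39, -0.083 to 1.55) and 0.33 for Nxn (SE 0.16, 0.0010 to 0.66). The arrays overlapped for 11 of 11 probe sets, in each case through crush replicate 4.

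Without crush replicate 4, left out with its values known, the same differences were larger. They were 3.12 for Cpne2 (SE 0.72), 1.79 for Sh3d19 (SE 0.32), 2.46 for Atp13a3 (SE 0.39), 1.20 for Galnt7 (SE 0.32) and 0.51 for Nxn (SE 0.13) on the log2 scale. Of the 7 member probe sets, 7 then passed, where 3.74% of all tested probe sets were called higher in SOD1 muscle. All 4 SOD1 arrays lay above the remaining 3 crush arrays for 11 of 11 member probe sets, against 10.6% of all. Both the choice of genes and that of the array enter these counts, and nothing is read from them.

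The SOD1 differences of gastrocnemius and triceps were set against each other by the interaction. It is made of the differences that chose the genes, so its values for them are a description. It called 0 of 7 member probe sets and 0 of 7523 (0%) by limma, with 0 and 710 at an unadjusted p under 0.05. The estimate, gastrocnemius minus triceps, was 1.10 for Atp13a3 (95% interval -0.65 to 2.86), 0.81 for Sh3d19 (-0.58 to 2.19) and 0.17 for Cpne2 (-2.27 to 2.62). It was 0.29 for Galnt7 (-0.86 to 1.44) and 0.37 for Nxn (-0.10 to 0.83), and all 5 intervals held 0.

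The choice did not use the contrast between muscles of 1 genotype, although it used the arrays that enter it. All member probe sets tested, except the lead ones of Nxn and Atp13a3, passed the filter through their high groups. The tests between muscles carry these limits. In NTg mice, 0 of 7 member probe sets differed between gastrocnemius and triceps by limma, where 1.71% of all did. An unadjusted p under 0.05 was found for 0 of the 7 and for 1077 of all 7523. The log2 difference was 0.64 for Cpne2 (95% interval -1.09 to 2.36), 0.32 for Sh3d19 (-0.66 to 1.31), -0.15 for Galnt7 (-0.96 to 0.67) and -0.35 for Atp13a3 (-1.59 to 0.89). For Nxn it was 0.0099 (-0.32 to 0.34), the narrowest interval. Arrays of both muscles overlapped for 11 of 11.

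In SOD1 mice, 0 of 7 differed between gastrocnemius and triceps (4.84% of all did). An unadjusted p under 0.05 was found for 3 of the 7 and for 1653 of all 7523. Sh3d19 was higher in gastrocnemius by 1.13 (SE 0.47, 95% interval 0.15 to 2.11, adjusted p = 0.165), and its adjusted p was 0.0267 without crush replicate 4, which belongs to neither group. Nxn had 0.38 (SE 0.16, interval 0.044 to 0.71, adjusted p = 0.17), Cpne2 0.81 (interval -0.92 to 2.54), Atp13a3 0.75 (-0.49 to 2.0) and Galnt7 0.14 (-0.67 to 0.96). SOD1 gastrocnemius lay wholly above SOD1 triceps for 1 of 11 probe sets, the dim 1418460_at of Sh3d19, against 4.75% of all. Without SOD1 triceps replicate 4, 1 of 7 member probe sets and 828 of all 7523 were called.

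Within groups the lead probe sets of the 5 genes all correlated positively. As a description over the 20 arrays, the deviations of the lead probe sets from their group means had a Pearson r between 0.54 and 0.90 over the 10 pairs of genes, with a median of 0.80. Without crush replicate 4 the range was 0.16 to 0.80 and the median 0.57, so that much of it rests on that array. The tightest pair was Galnt7 and Atp13a3 (0.90, and 0.80 without it), and the loosest Cpne2 and Nxn (0.54, and 0.16 without it). Other genes often came closer to a member. By these deviations, Nxn ranked 497 of 4764 genes for Cpne2 and Cpne2 359 for Atp13a3, while Atp13a3 ranked 1 for Sh3d19. Probe sets of the same gene had r between 0.24 and 0.91 (8 pairs, median 0.70). Without crush replicate 4 their range was -0.038 to 0.77 and the median 0.53. Over all 20 arrays with the group differences left in, r was between 0.84 and 0.97. These arrays share their groups, and r then mostly repeats the group means.

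The genes most like each member over 20 arrays, among lead probe sets of 4764 named genes, were of several kinds. Atp13a3 came closest to Ankrd10 (r = 0.98), Myog, a factor of muscle differentiation (0.98), and Rb1, the retinoblastoma protein (0.98). Galnt7 came closest to Myog (0.96), Chrnb1, a subunit of the muscle acetylcholine receptor (0.96), and Atp13a3 (0.95). Sh3d19 and Nxn were nearest to each other (0.97). They were followed by Aebp2 (0.95) and Klhl5 (0.94) for Sh3d19, and by Myf6, a myogenic factor (0.94), and Map1lc3a, an autophagy protein (0.93), for Nxn. Cpne2 came closest to Lgals3, a galectin of macrophages (0.96), Tubb6, a beta tubulin (0.93), and Sh3d19 (0.93). With crush replicate 4 left out, the first place went to Ankrd10 (0.98) for Atp13a3, Myog (0.95) for Galnt7, Nxn (0.96) for Sh3d19, Myf6 (0.97) for Nxn and Lgals3 (0.95) for Cpne2.

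By deviations from group means over 20 arrays, the nearest genes were Chrna1, the receptor's alpha subunit (0.97), Ankrd10 (0.96) and Mef2a (0.96) for Atp13a3, and Myod1 (0.94), Myog (0.93) and Dapk2 (0.93) for Galnt7. For Nxn they were Myf6, Lrba and Mustn1 (each 0.91). For Sh3d19 they were Atp13a3, Tax1bp1 (each 0.89) and Tgfbr1 (0.88). For Cpne2 they were Krt18, a keratin (0.91), Lgals3 and Ivns1abp (each 0.84). These ranks depended on crush replicate 4. Without it the nearest was Rab5a (0.94) for Atp13a3, Myl4 (0.89) for Galnt7, Cmas (0.85) for Nxn, Wdr1 (0.85) for Sh3d19 and Krt18 (0.86) for Cpne2. The first 3 then included Myod1 (0.89) for Galnt7 and Tax1bp1 (0.81) for Sh3d19, while for Atp13a3 and Nxn they held none of the genes named with all arrays.

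Genes known to rise in denervated muscle give the frame for these levels. Of 10 tested genes of that list, 9 rose in SOD1 gastrocnemius, with a median log2 change of 3.34 over the 10, among them Myog (3.24, SE 0.64, adjusted p = 0.00634) and Chrna1 (3.54, SE 0.75, adjusted p = 0.00846). In SOD1 triceps the median over the 10 was 2.40. Of them 1 passed there, Sln, the calcium pump regulator sarcolipin (8.34, SE 0.61, adjusted p = 1.06e-07). After crush the median was 1.49. Sln passed as higher (4.21, SE 0.61, adjusted p = 0.00117) and Fbxo32, the atrophy ubiquitin ligase, as lower by 0.79 (SE 0.21, adjusted p = 0.0374). The others passed in neither direction. Over all tested probe sets, 5.97% were called higher in SOD1 gastrocnemius, 0.239% in SOD1 triceps and 1.08% after crush. The summed linear signal of the 16 list genes on the table ran from 1256 to 1717 in NTg gastrocnemius and from 6821 to 16070 in SOD1 gastrocnemius. It was 3298, 4421, 3940 and 23400 in the crush arrays and 2904, 4645, 4349 and 15400 in SOD1 triceps, with replicate 4 the highest in both, as for the 5 genes.

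Relatives of each gene are given list by list. Of all 7523 tested probe sets, limma called 449 higher and 453 lower in SOD1 gastrocnemius. The counts were 18 and 0 in SOD1 triceps, and 81 and 230 after crush. Of 8 other copines, 2 were on the table and tested, Cpne1 and Cpne3, and 0 passed in SOD1 gastrocnemius, SOD1 triceps or crushed muscle; Cpne1 had log2 changes of 0.22, -0.20 and 0.22. Of 6 tested SH3 adaptors and ADAM proteases, 0 passed in SOD1 muscle and 1, the protease Adam9, fell after crush by 0.52 (SE 0.13, adjusted p = 0.036). That call was lost in 7 of 9 fits that left out 1 array. Of 4 tested enzymes of mucin-type O-glycosylation, 0 passed in SOD1 muscle and Galnt2, which starts the same sugar chains, fell after crush by 0.77 (SE 0.18, adjusted p = 0.0222). Its other probe sets had -0.59 and -0.56 and did not pass, and the call was lost in 5 of 9 such fits, up to an adjusted p of 0.0717.

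Nucleoredoxin belongs to a family of redox proteins, of which 15 other members were tested. In SOD1 gastrocnemius Txnip, the inhibitor of thioredoxin, fell by 0.82 (SE 0.17, adjusted p = 0.008), while thioredoxin itself, Txn1, rose by 0.86 (SE 0.26, adjusted p = 0.0362) and Txnl1 by 0.46 (SE 0.14, adjusted p = 0.0336). After crush Txnip fell by 1.37 (SE 0.17, adjusted p = 0.000464), and mitochondrial Txn2 (0.57, adjusted p = 0.0491) and the peroxiredoxin Prdx2 (0.54, adjusted p = 0.0255) rose. The other Prdx2 probe set had -0.098. Another Txnl1 probe set had 0.22 in SOD1 gastrocnemius and was not called. Of the other Txn2 probe sets, 1 was called after crush (0.61, adjusted p = 0.0232) and 1 was not (0.32). Both calls of Txnip held in every fit that left out 1 array, and its second probe set was called in both comparisons. The calls of Txn1, Txnl1, Txn2 and Prdx2 were each lost in 5 to 7 such fits. Srxn1, not called by its lead probe set (0.16), was called by another (0.83, adjusted p = 0.0483) in SOD1 gastrocnemius.

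Of 14 tested Wnt and Dishevelled genes, the Wnt receptor Fzd7 fell in SOD1 gastrocnemius by 1.25 (SE 0.28, adjusted p = 0.00998) and after crush by 1.17 (SE 0.28, adjusted p = 0.0232). The first call held in every fit without 1 array, and the second was lost without NTg gastrocnemius replicates 2, 3 or 4 or crush replicate 1, up to an adjusted p of 0.0728. Dvl1, a Dishevelled protein and so a class of partner of nucleoredoxin, rose in SOD1 gastrocnemius by 0.46 (SE 0.13, adjusted p = 0.0301). That call was lost in 7 of 10 such fits, and the other Dvl1 probe set had 0.088. Csnk1d was called by a probe set other than its lead (0.56, adjusted p = 0.0398), while the lead had -0.049.

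Polyamine genes, listed with Atp13a3, had 15 tested members. In SOD1 gastrocnemius Odc1, the first enzyme of polyamine synthesis, rose by 1.11 (SE 0.27, adjusted p = 0.0145), Sat1, which acetylates polyamines for export, by 0.73 (SE 0.18, adjusted p = 0.0171) and the heparan sulphate proteoglycan Gpc1 by 0.80 (SE 0.17, adjusted p = 0.0076). The spermine oxidase Smox fell by 1.62 (SE 0.37, adjusted p = 0.0112). After crush Smox fell by 1.34 (SE 0.37, adjusted p = 0.0453), and no other passed. Gpc1 kept its call whichever array was left out. Without SOD1 gastrocnemius replicate 4 the adjusted p of Smox was 0.059. That array or NTg gastrocnemius replicate 2 ended the call of Odc1 (up to 0.0631), and 3 arrays that of Sat1 (up to 0.0808). The crush call of Smox was lost in 7 of 9 such fits.

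In SOD1 triceps 0 genes of these 6 lists passed by their lead probe sets. Odc1 was called there by 1438761_a_at (1.56, SE 0.28, adjusted p = 0.0211), while its lead had 1.09 (adjusted p = 0.0955). Between gastrocnemius and triceps of SOD1 mice, the sialyltransferase St3gal2 was lower in gastrocnemius (-0.64, SE 0.17, adjusted p = 0.0343). Prdx2 (0.47, SE 0.13, adjusted p = 0.0456) and the Wnt target Axin2 (0.66, SE 0.19, adjusted p = 0.0499) were higher. In this comparison 4.84% of all tested probe sets were called. That count, 364, was 54 on the compared arrays alone. For these genes, fits that left out single arrays are not given. The lists' medians lay near those of all probe sets in most cases: in SOD1 gastrocnemius they were 0.17 for copines, -0.048 for SH3 and ADAM genes, -0.37 for O-glycosylation, 0.076 for the thioredoxin family, 0.053 for Wnt genes and 0.023 for polyamine genes.

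**Figure D5:**
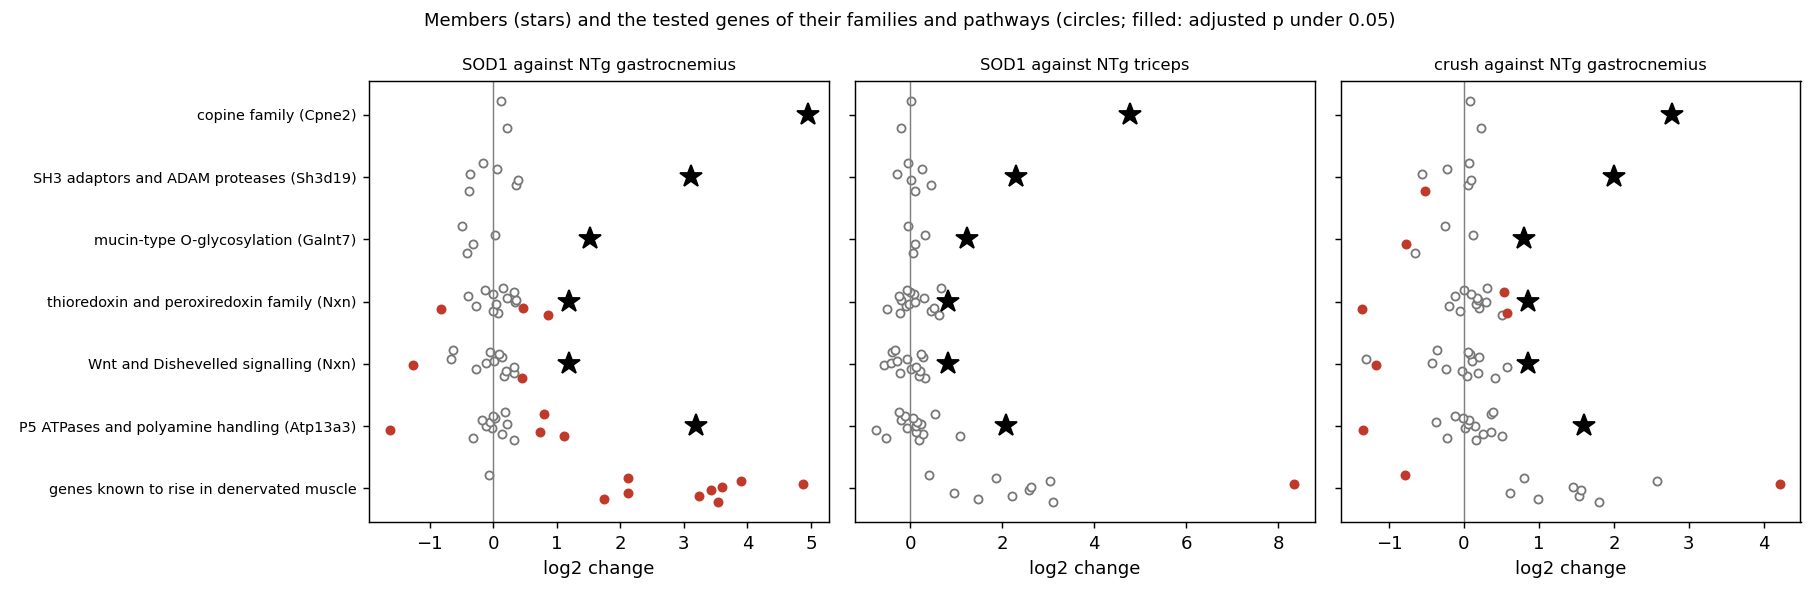
Log2 change (horizontal axis) against NTg muscle of the 5 genes (stars) and of the tested genes of their families and pathways (circles, filled where the adjusted p was under 0.05), in 3 comparisons that share NTg arrays. Since the 5 genes were chosen on these differences, the stars lie to the right by that choice, and their places are a description. Cpne2 stands at 4.95 beside 2 other copines at 0.22 and 0.12 in SOD1 gastrocnemius.

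Among the tested markers of other cells, those called in SOD1 gastrocnemius were macrophage markers and the satellite cell marker Cd82. In whole muscle, a change in the number of cells of a type and a change in their RNA per cell cannot be told apart. Of 8 tested macrophage markers, 7 rose in SOD1 gastrocnemius, with a median log2 change of 0.91 over the 8, among them Lgals3 (2.64, SE 0.50, adjusted p = 0.00585) and C1qa (1.85, SE 0.51, adjusted p = 0.0256). 0 passed in SOD1 triceps or after crush. Lgals3, the gene nearest to Cpne2 over the arrays, had 2.31 in SOD1 triceps (SE 0.50, adjusted p = 0.0571) and 1.29 after crush (SE 0.50, adjusted p = 0.143), and C1qa -0.0078 and 1.03. The summed signal of the 11 macrophage markers on the table was 654 to 906 in NTg, 1327 to 1881 in SOD1 and 826 to 1258 in crushed gastrocnemius, and 895 to 1413 in NTg and 978 to 1837 in SOD1 triceps.

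Of 5 tested satellite cell markers, Cd82 rose in SOD1 gastrocnemius (1.31, SE 0.29, adjusted p = 0.0109) and 0 passed elsewhere against NTg muscle. Their summed signal over the 7 on the table, which lacks Pax7, was 719 to 734 in NTg and 881 to 1153 in SOD1 gastrocnemius. After crush it was 567 to 704 in 3 arrays and 1047 in replicate 4. Of 3 tested Schwann cell and nerve markers, Mbp, the myelin basic protein, fell after crush by 2.35 (SE 0.52, adjusted p = 0.0163). Of 8 fibroblast, 7 endothelial, 5 smooth muscle, 3 adipocyte and 10 muscle fibre markers, 0 passed against NTg muscle in any of the 3 comparisons. The fibre markers had a median log2 change of 0.073 in SOD1 gastrocnemius, -0.64 in SOD1 triceps and 0.25 after crush. Between the SOD1 muscles, 2 of 10 fibre, 2 of 5 smooth muscle, 2 of 3 Schwann cell and 1 of 5 satellite cell markers were called higher in gastrocnemius. In that comparison 4.84% of all probe sets were called, and 0 markers of the other tested lists. Lymphocyte markers had 1 probe set on the table, below the filter, and blood markers 0. The part of these cells in the members' values was not tested.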

How the data were processed

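RNA of 20 mouse muscle samples was measured on Affymetrix arrays from 4 ug of total RNA each. The deposited table holds log2 signals; MAS5 computed them, per the submitters' processing notes, while its version, target level and any filter were not given in the sources used here. The scale was read from the values, and MAS5 signals have no floor, so folds against dim groups are uncertain.

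The 30% of probe sets with the lowest mean were left out, which left 7523. A model of 5 group means was fitted with limma 3.58.1 (R 4.3.3; eBayes with a trend, 15 residual degrees of freedom), adjusted by Benjamini-Hochberg within each comparison, and an adjusted p under 0.05 was called. The procedure was tested on simulated data. Intervals are at 95%. Of the probe sets, 9874 had 1 platform symbol, 387 several and 487 none, and 9862 matched RefSeq by gene ID. Figures used matplotlib 3.10.9.

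Named were the members, up to 4 called genes per list and comparison, and the 3 genes nearest to each member by Pearson's r. The members and lists were chosen with earlier results of these data known. Denervation genes and markers of cell types were named as examples of their lists after their values were seen, as were list genes called by another probe set. Alternatives were quantile normalization, no filter, a 60% filter, the compared arrays alone, a replicate block, the members' other probe sets, and leaving out each compared array, crush replicate 4 or NTg triceps replicate 4. Those without crush replicate 4 for array ranges, group orders, correlations and nearest genes were chosen after seeing the data. Same-numbered arrays did not all deviate together between muscles (r from -0.10 to 0.62), so numbers were not taken as pairs. In SOD1 mice r was 0.57, -0.10, -0.037 and 0.62 for replicates 1 to 4, against -0.62 to 0.16 for unlike numbers. In NTg mice it was 0.24, 0.13, 0.21 and -0.087. The tests between muscles and the interaction treat all arrays as independent and leave out any pairing by mouse.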

Additional observations from a re-analysis of the deposited data

Results flagged for a closer look

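Of 55 groups of 4 arrays (11 probe sets in 5 groups), 7 held 1 array far from the other 3 by Dixon's criterion, which chance gives in about 1 in 20 groups. The probe sets of a gene and the genes on an array are not independent. In each of the 7 the array was replicate 4 and the highest.

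After crush, replicate 4 stood at 10.50 for Atp13a3 (1434513_at), 3.13 log2 units above the next array. It stood at 9.27 for Cpne2 (1424831_at), 3.48 above the next, and at 7.96 for Galnt7 (1452232_at), 2.26 above it. In SOD1 triceps, replicate 4 stood at 10.23 for Atp13a3 (1434513_at), 1.80 above the next. For Galnt7 it stood at 8.05 (1426908_at) and 5.85 (1425581_s_at), 1.55 and 0.99 above. In SOD1 gastrocnemius, replicate 4 stood at 8.47 for Nxn (1422465_a_at), 0.32 above 3 arrays within 0.1 of each other. The cause of these high values was not tested.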

How the results depend on the processing

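No result changed sign past the threshold under any alternative run. For single genes, of 751 values under alternatives, 680 kept their side of the threshold or moved by less than the spread, 63 lost a call, 6 gained 1 and 2 moved by more. The 63 lost calls were all of relatives. Calls that members lost or gained against NTg muscle are not among the 63 and 6. In SOD1 triceps, 4 member probe sets were called with all arrays, 0 without NTg triceps replicate 3 and 6 without crush replicate 4. Counts of called probe sets in SOD1 against NTg gastrocnemius (902) were 1768 on the compared arrays alone and 178 to 1341 when 1 array was left out, and those of members (7) were 2 of 2 tested under the 60% filter. In triceps the count (18) was 9 after quantile normalization, 7 under the 60% filter, 104 with the replicate block and 3 to 167 without 1 array; that of members (4) was 1 after quantile normalization, 1 under the 60% filter and 0 to 6 without 1 array. After crush the count (311) was 494 with the replicate block and 94 to 395 without 1 array; that of members (3) was 5 with the block, 1 under the 60% filter, 1 on the compared arrays alone and 1 to 3 without 1 array. For SOD1 against crush the counts of 0 ran from 0 to 604 without 1 array, and for members from 0 to 7. For the interaction the count of 0 ran from 0 to 34. For gastrocnemius against triceps, the NTg count (129) was 80 under the 60% filter and 30 to 327 without 1 array. The SOD1 count (364) was 54 on the compared arrays alone and 45 to 828 without 1 array, and that of members 0 to 1. With no filter, 10 of 11 member probe sets were called in SOD1 gastrocnemius, 4 of 11 in SOD1 triceps and 4 of 11 after crush. Of all 10748 probe sets, 981, 23 and 308 were called in these fits, in either direction. The block used numbers that do not tie arrays to mice. Apart from smaller numbers of arrays or probe sets tested, the cause of these shifts was not tested. With 4 arrays a group and no detection calls, signal near the bottom of the scale limits the folds of Cpne2, Galnt7 and Sh3d19.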
